A study of Homo sapiens with 9 samples.

Results

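Collagen chain genes were followed in SKMEL28 cells, an established human melanoma line, across a knockdown of p16 and a further knockdown of ATR. Members were all genes whose symbol is COL, a number, A and a number, which gave 44 of the 48162 genes in the count table, spread over 17 chromosomes. RNA was sequenced from 9 libraries, 3 in each of 3 groups: shCont cells, which carried an shRNA against GFP, shp16 cells, with an shRNA against p16 (the product of CDKN2A), and shp16+shATR cells, with shRNAs against both p16 and the DNA damage response kinase ATR. All cells received lentivirus, were selected with puromycin at 1 µg/ml for 3 days and grew in DMEM with 5% serum. Whether shp16 cells also carried a second control virus, and which ATR hairpin was used, is not given in the sources used here. Neither the labels nor the methods say whether the 3 libraries of a group came from separate cultures. A legend in the paper describes its mRNA values for lanosterol synthase as 3 technical replicates of 1 experiment, without naming the assay. Every p-value below thus measures only the spread between these libraries of 1 line, which may be technical.

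A collagen is built from 3 chains wound into a triple helix, and each chain has its own gene. Fibrillar collagens form the cables of connective tissue, collagen IV forms the sheet of basement membranes, collagen VI forms beaded filaments around cells, and the fibril-associated collagens (FACIT) decorate the cables. Collagen VII anchors the epidermal basement membrane to the dermis, the multiplexins (collagens XV and XVIII) sit in basement membrane zones and release endostatin-type fragments, and transmembrane collagens span the cell surface. Melanoma cells are not a main source of fibrillar collagen, most of which is made by fibroblasts in skin.

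Libraries held 17314662 to 23588174 counts. CDKN2A stood at 121, 91.0 and 81.0 FPKM (fragments per kilobase of gene, scaled to the library total) in shCont replicates 1 to 3, at 57.1, 74.8 and 79.8 in shp16 and at 64.5, 71.2 and 63.1 in shp16+shATR. All shp16 values were under all shCont values, but the log2 fold change of -0.48 did not pass the test (SE 0.163, adjusted p = 0.0723, edgeR). It passed without shCont replicate 3 (-0.60, adjusted p = 0.0300). With 1 library left out the CDKN2A value ranged from -0.60 to -0.26, and it passed in 3 of 18 alternatives. ATR stood at 10.6, 10.4 and 10.6 FPKM in shp16 and 4.84, 4.92 and 4.89 in shp16+shATR, and it fell by 1.12 on the log2 scale (SE 0.220, adjusted p = 0.0128), a call lost without shp16 replicate 1 or any 1 of the shp16+shATR libraries (adjusted p up to 0.0712). In shCont it was 5.34, 11.8 and 11.8, so the library labelled shCont replicate 1 had ATR near the level of the ATR knockdown. That library stood apart in other ways too, since edgeR's coefficient of variation was 0.149 with it and 0.0901 without it, and results that rest on it are given both ways. All 8 melanocyte lineage markers were at 1 FPKM or more, with sums of 4843 to 5455 FPKM in shCont, 2558 to 4757 in shp16 and 4014 to 4931 in shp16+shATR. Each shp16 library was thus under the shCont range of this list, and its part in the collagen changes was not tested. The endothelial and leukocyte lists had none of 5 and none of 6 genes at that level, and the fibroblast list had 1 of 9, lumican.

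Expression was concentrated in a few chains. Only 5 genes averaged at least 1 FPKM over the 9 libraries, COL9A3, COL11A1, COL19A1, COL16A1 and COL6A5, while 39 were under 1 and 21 of these under 0.1. COL21A1 had no counts. The test covered the 29 genes that passed edgeR's filter on low counts, and the 15 below it held 0 to 60 counts each over all libraries. In the heat map by structural class, most rows of fibrillar, collagen IV and transmembrane chains were dark in every group, and the bright rows were COL11A1, COL9A3 and, in shCont, COL19A1 and COL6A5.

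**Figure D1:**
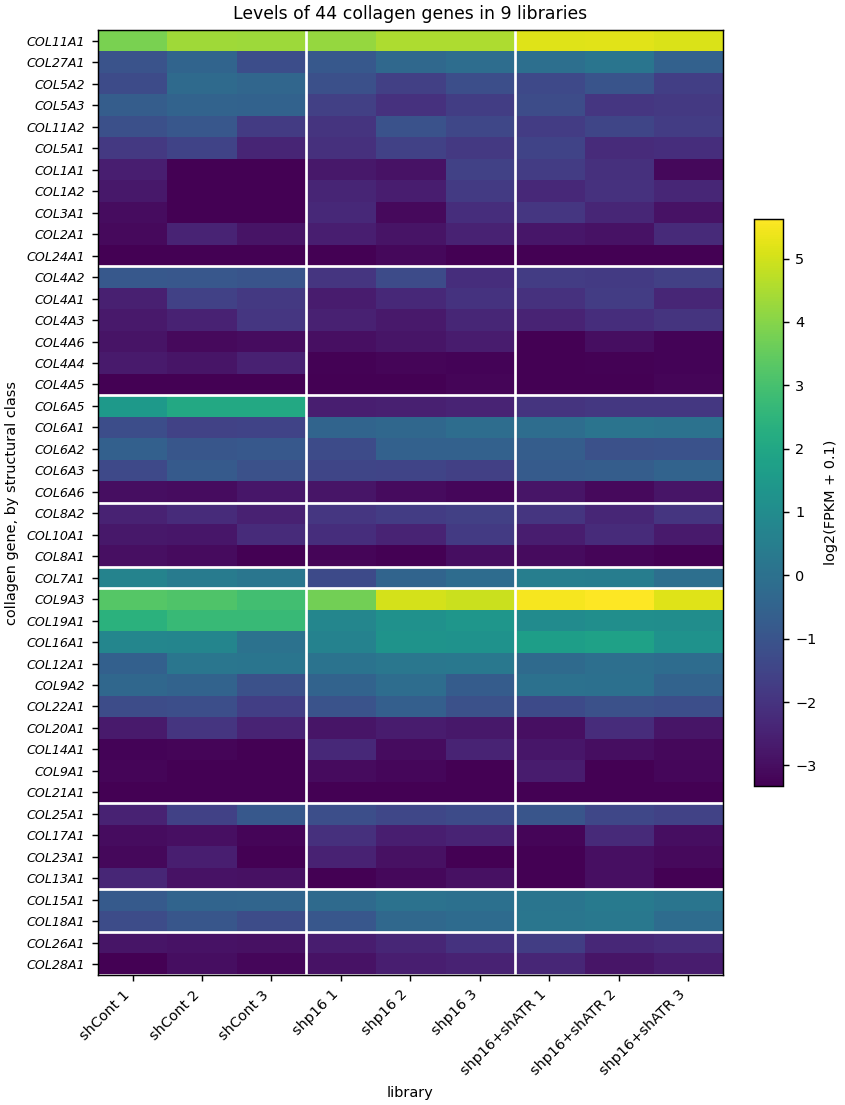
Heat map of log2(FPKM + 0.1) for the 44 collagen genes (rows, by structural class, white lines between classes) in the 9 libraries (columns). COL11A1 and COL9A3 were the brightest rows in the shp16+shATR libraries, and COL6A5 was bright in the 3 shCont libraries only.

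The summed FPKM of the 44 genes was 41.3, 50.8 and 46.9 in shCont, 42.3, 70.1 and 67.9 in shp16, and 97.9, 103.1 and 84.4 in shp16+shATR. The shCont and shp16 libraries overlapped, and the shp16+shATR libraries were above all others. COL9A3 and COL11A1 made up 57.0 to 58.0% of the sum in shCont, 74.0 to 79.7% in shp16 and 83.3 to 83.8% in shp16+shATR. COL19A1 went the other way, from 12.4 to 13.6% in shCont to 1.93 to 2.37% in shp16+shATR. COL6A5 supplied 6.58 to 8.71% of the sum in shCont and at most 0.21% in the other groups. These sums are levels in bulk RNA, in which fewer cells of a kind and less RNA per cell cannot be told apart.

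**Figure D2:**
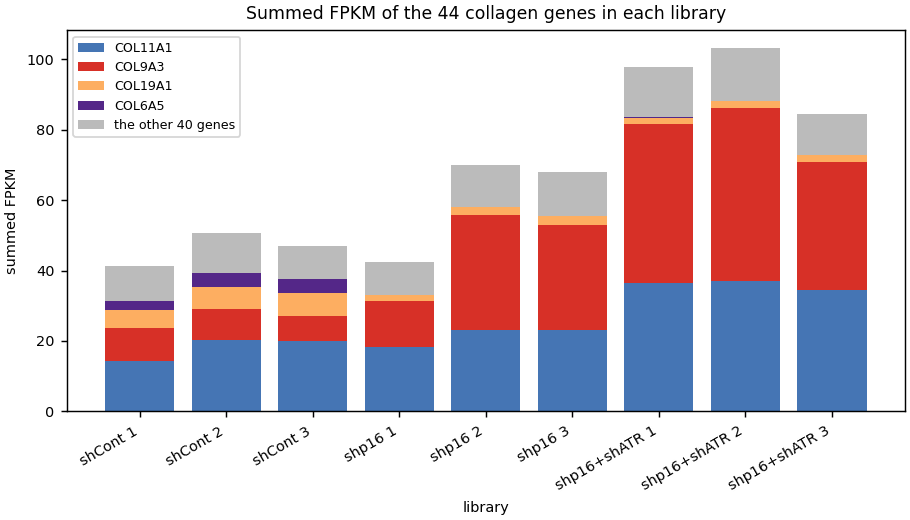
Stacked bars of the summed FPKM of the 44 collagen genes in each library, with COL11A1, COL9A3, COL19A1 and COL6A5 coloured and the other 40 genes in grey. The shp16+shATR libraries reached 84.4 to 103.1, of which COL9A3 and COL11A1 made up over 83%.

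The first comparison, shp16 against shCont, asked what differed in cells with the p16 shRNA. COL6A5 fell almost to nothing, COL5A3 and COL19A1 fell next most, and COL7A1 and COL4A2 fell less. COL9A3, COL6A1 and COL18A1 rose. Of the 29 tested genes 8 passed the test at an adjusted p of 0.05, 3 higher and 5 lower (27.6%), against 14.8% of all 15776 genes tested (7.23% higher and 7.59% lower). The median log2 fold change of the tested collagen genes was 0.26, against -0.016 over all genes.

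COL6A5 encodes an alpha chain of collagen VI that can take the place of the alpha 3 chain, and it is best known from skin. The gene lies on the plus strand at chr3:130064359-130203688 (GRCh37, 43 exons). Its levels were 2.72, 4.11 and 4.08 FPKM in shCont, 0.0687, 0.0738 and 0.0867 in shp16, and 0.156, 0.176 and 0.175 in shp16+shATR. Every shCont library was far above every other library, and the 3 groups did not overlap. Counts fell from 591, 711 and 748 to 13, 14 and 16. The log2 fold change was -5.55 (SE 0.206, 95% interval -6.00 to -5.10, adjusted p = 1.12e-07, edgeR), or 46.8-fold lower, and -5.70 without the library labelled shCont replicate 1. Downstream of it, PIK3R4 averaged 11.8 and 12.7 FPKM in shCont and shp16 and ATP2C1 averaged 27.5 and 27.4, and neither passed the test (adjusted p = 0.652 and 0.975). Upstream, ALG1L2, FAM86HP and RP11-77P16.4 had log2 fold changes of -0.74, -0.62 and -0.58, which did not pass either (adjusted p = 0.185, 0.110 and 0.217), although the ALG1L2 groups did not overlap. The next collagen VI gene, COL6A6, begins 75489 bases away and was under 0.1 FPKM in each group, as was the pseudogene COL6A4P2 on the other side.

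The other collagen VI chains behaved differently from one another. COL6A1, the alpha 1 chain of the standard heterotrimer (chr21:47401651-47424964), was at 0.330, 0.239 and 0.250 FPKM in shCont and 0.644, 0.700 and 0.826 in shp16. The groups did not overlap, and the rise was 1.39 on the log2 scale (SE 0.230, adjusted p = 0.00205, edgeR), 2.62-fold. COL6A2, the alpha 2 chain, lies 93046 bases from COL6A1 on the same chromosome and was at 0.576, 0.431 and 0.451 FPKM in shCont and 0.310, 0.590 and 0.592 in shp16. The 2 groups overlapped (log2 fold change 0.02, 95% interval -0.63 to 0.67, adjusted p = 0.975). COL6A3, the largest chain of that trimer, had a log2 fold change of -0.58 (adjusted p = 0.0902) and passed without the library labelled shCont replicate 1 (-0.72, adjusted p = 0.0270).

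Among the FACIT chains, COL19A1 and COL9A3 moved in opposite directions. COL19A1, a chain found at basement membrane zones (chr6:70576463-70919679, plus strand, 51 exons), was at 5.11, 6.36 and 6.37 FPKM in shCont and 1.63, 2.22 and 2.47 in shp16. No shp16 library came near the shCont range, and the log2 fold change was -1.49 (SE 0.137, adjusted p = 3.48e-05, edgeR), 2.81-fold lower. COL9A1, 5084 bases further on, held 10 counts over all libraries. Upstream of COL19A1, LMBRD1 fell as well (-0.42, adjusted p = 0.0251), and FAM135A on the other side did not pass (0.28, adjusted p = 0.470). COL9A3, one of the 3 chains of the cartilage collagen IX (chr20:61447596-61472511, plus strand, 32 exons), was at 9.43, 8.77 and 7.36 FPKM in shCont and 13.1, 32.7 and 29.8 in shp16. All shp16 libraries were above shCont, with replicate 1 well under the other two, and the rise was 1.55 (SE 0.257, adjusted p = 0.00206), 2.93-fold. The end of COL9A3 overlaps that of TCFL5 on the opposite strand, whose log2 fold change was -0.14 (adjusted p = 0.360). Of its partner chains, COL9A2 had a log2 fold change of 0.20 (adjusted p = 0.713) and COL9A1 was below the filter. COL16A1, a FACIT chain of skin and cartilage, was at 1.64, 1.56 and 0.939 FPKM in shCont and 1.47, 2.32 and 2.26 in shp16, which overlapped (0.54, adjusted p = 0.143), and it passed without the library labelled shCont replicate 1 (0.72, adjusted p = 0.0374).

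COL5A3, a chain of the minor fibrillar collagen V (chr19:10070237-10121147, minus strand), was at 0.529, 0.622 and 0.604 FPKM in shCont and 0.221, 0.142 and 0.211 in shp16. The groups were well apart (log2 fold change -1.59, SE 0.293, adjusted p = 0.00401, edgeR), a level 3.02-fold lower. It was the single fibrillar chain of 9 tested that passed in this comparison. COL11A1, the fibrillar chain of cartilage collagen XI and the second most abundant collagen here, did not pass (0.26, 95% interval -0.02 to 0.53, adjusted p = 0.191).

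COL7A1 encodes the anchoring fibril chain (chr3:48601506-48632700, minus strand, 118 exons). It was at 1.51, 1.21 and 1.04 FPKM in shCont and 0.305, 0.629 and 0.792 in shp16. All shp16 values were lower, with replicate 1 lowest, and the fall was 1.13 on the log2 scale (SE 0.281, adjusted p = 0.0204, edgeR). The gene passed in 14 of 18 alternatives (adjusted p up to 0.164), and among the others the call was lost without shp16 replicate 2 (-1.19, adjusted p = 0.0553). UCN2, a peptide hormone gene that lies 299 bases from the COL7A1 3′ end, fell as well (-0.63, adjusted p = 0.0148), and whether its reads enter the COL7A1 count was not tested. COL4A2, an alpha 2 chain of basement membranes (chr13:110958159-111165374, plus strand), was at 0.445, 0.433 and 0.401 FPKM in shCont and 0.163, 0.310 and 0.127 in shp16. The groups did not overlap (-1.09, SE 0.306, adjusted p = 0.0347), but the call was lost in 11 of 18 alternatives, among them leaving out shCont replicate 2 or 3 or shp16 replicate 1 or 3. COL4A1, which lies head to head with it and pairs with it in the trimer, had a log2 fold change of -0.59 (95% interval -1.63 to 0.44, adjusted p = 0.440).

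COL18A1, the multiplexin from which endostatin is cut (chr21:46825052-46933634, plus strand), was at 0.321, 0.420 and 0.320 FPKM in shCont and 0.442, 0.722 and 0.764 in shp16. The groups did not overlap, with shp16 replicate 1 just above the shCont range (0.87, SE 0.224, adjusted p = 0.0247, edgeR). The call was lost in 8 of 18 alternatives, among them leaving out shp16 replicate 2 or 3, and the gene shares its locus with SLC19A1 on the opposite strand. COL15A1, the other multiplexin, was at 0.479, 0.631 and 0.651 FPKM in shCont and 0.745, 0.939 and 0.883 in shp16. These did not overlap, but the change of 0.56 did not pass (adjusted p = 0.0531).

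**Figure D3:**
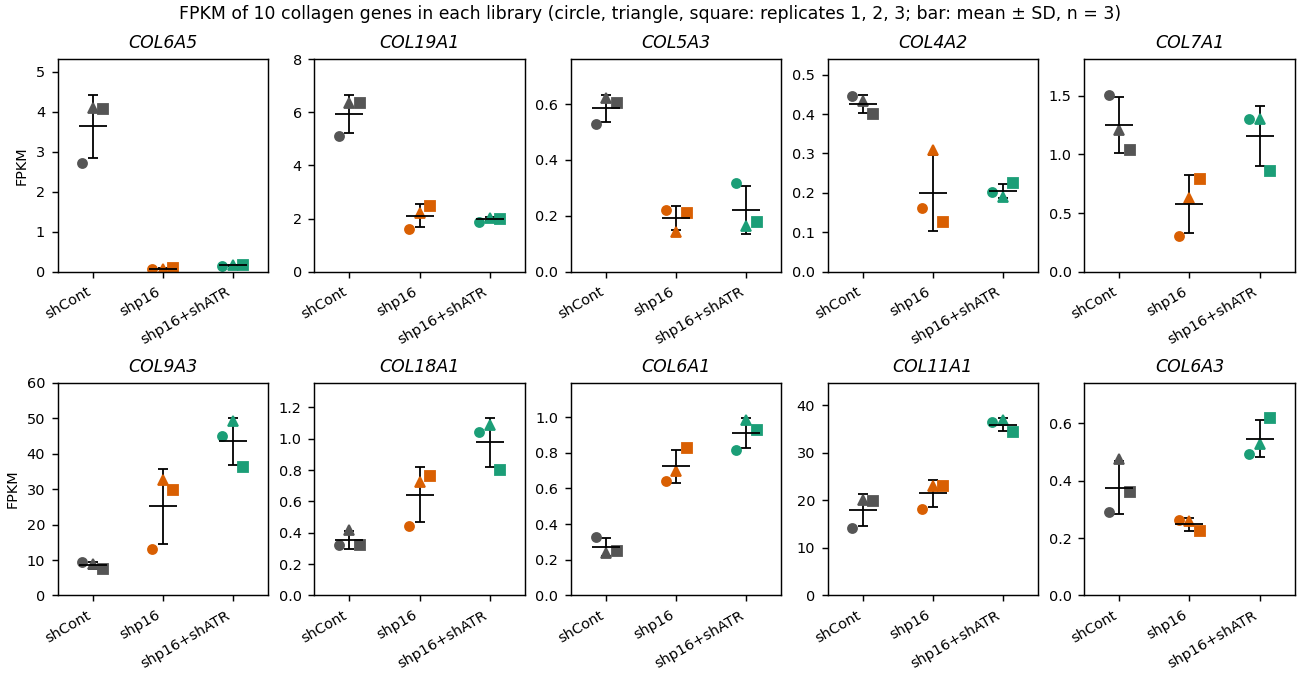
FPKM of the 10 collagen genes that passed the test in shp16 against shCont or in shp16+shATR against shp16, in each of the 9 libraries, with the mean and SD of each group (n = 3, each axis starting at 0). COL6A5 sits at 2.72 to 4.11 in shCont and under 0.2 in the other 6 libraries, whereas COL11A1 is highest in shp16+shATR.

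Chains that were close to silent in shCont need care. COL1A1, COL1A2 and COL3A1, the main fibrillar chains of skin and bone, had 0 counts in shCont replicates 2 and 3 and 11, 7 and 3 counts in the library labelled shCont replicate 1. In shp16 they had 7, 5 and 31 counts (COL1A1), 11, 8 and 22 (COL1A2) and 12, 2 and 14 (COL3A1). None of the 3 passed in this comparison (adjusted p = 0.274, 0.0633 and 0.0751), and COL1A2 and COL3A1 passed without the library labelled shCont replicate 1 (adjusted p = 0.00300 and 0.0283), COL3A1 also without shp16 replicate 2 (adjusted p = 0.0436). COL17A1, a transmembrane collagen of the epidermal hemidesmosome, had 3, 3 and 1 counts in shCont and 16, 8 and 10 in shp16 (adjusted p = 0.0699). Epithelial markers were higher in sum in the same libraries. The list of 7 summed to 5.35 to 9.06 FPKM in shCont, 18.5 to 23.4 in shp16 and 18.8 to 20.2 in shp16+shATR. Only 2 of the 7 averaged 1 FPKM or more over all libraries, so the sums need not hold for every marker. E-cadherin (CDH1) was at 0.348 to 0.620, 3.26 to 3.98 and 4.18 to 4.59. KRT5 had 0 counts in all shCont libraries and 39, 63 and 42 in shp16. CDH1 and KRT5 were picked from the list, and the direction of its other markers is not given here. Most of each shp16 sum came from markers other than CDH1. The part of these markers in the collagen changes was not tested.

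The second comparison, shp16+shATR against shp16, asked what differed when cells with the p16 shRNA also carried the ATR shRNA. Whether only shp16+shATR cells received a second virus is not given, so its part cannot be told apart. Below, "with ATR knockdown" stands for this comparison and "with p16 knockdown" for shp16 against shCont. COL11A1, COL6A3 and COL6A5 rose. The 3 genes that passed were 10.3% of the 29 tested, against 6.22% of all genes (2.73% higher and 3.49% lower). Of the 10 tested collagen genes with a lower value, none passed the test. Among them COL12A1 (-0.37, adjusted p = 0.287, edgeR), COL22A1 (-0.38, adjusted p = 0.448) and COL8A2 (-0.51, adjusted p = 0.480) had groups that did not overlap. The share of all genes without overlap was not counted. The median log2 fold change of the tested collagen genes was 0.22, against 0.0021 over all genes.

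COL11A1 (chr1:103342023-103574052, minus strand, 67 exons) was at 14.2, 20.2 and 19.8 FPKM in shCont, 18.2, 23.1 and 23.1 in shp16 and 36.5, 37.0 and 34.4 in shp16+shATR. The last group lay above all other libraries, and the former 2 groups overlapped. The rise over shp16 was 0.74 on the log2 scale (SE 0.125, 95% interval 0.47 to 1.02, adjusted p = 0.00568, edgeR), 1.67-fold, and it passed in all 17 alternatives. Its partner COL11A2 was under 1 FPKM on average and did not pass in any comparison.

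COL6A3 (chr2:238232646-238323018, minus strand) was at 0.292, 0.476 and 0.361 FPKM in shCont, 0.263, 0.258 and 0.223 in shp16 and 0.494, 0.527 and 0.618 in shp16+shATR. The shp16+shATR libraries were above all others, and the rise over shp16 was 1.13 (SE 0.208, adjusted p = 0.00901, edgeR), 2.19-fold. COL6A1 did not pass here (0.33, adjusted p = 0.419), nor did COL6A2 (-0.24, adjusted p = 0.725). COL6A5 regained a small part of its level: it rose by 1.14 (SE 0.249, 95% interval 0.60 to 1.68, adjusted p = 0.0207), 2.2-fold, and was still 21.2-fold under shCont. That rise rests on 13, 14 and 16 counts against 25, 37 and 32, and the call was lost in 9 of 17 alternatives, whichever library of either group was left out (adjusted p up to 0.0848). The COL6A3 call was lost without shp16 replicate 3 or without 1 of the shp16+shATR libraries (adjusted p = 0.0514 and 0.0515).

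Some chains had large values that did not pass. COL9A3 was at 45.1, 49.1 and 36.3 FPKM in shp16+shATR, above every shp16 library, with a log2 fold change of 0.80 (95% interval 0.26 to 1.34, adjusted p = 0.0854, edgeR). Without the library labelled shCont replicate 1, which enters through the shared estimate of spread, it passed (adjusted p = 0.0254). TCFL5, which overlaps its end, rose by 0.41 in the same comparison (adjusted p = 0.0243). COL7A1 was at 1.30, 1.30 and 0.858 FPKM, above every shp16 library and overlapping shCont, with a log2 fold change of 1.01 (95% interval 0.39 to 1.63, adjusted p = 0.0578), and it passed without that library (adjusted p = 0.0131). Beyond the COL7A1 3′ end, UCN2 had a log2 fold change of 0.49 (adjusted p = 0.0737) and PFKFB4 of 1.27 (adjusted p = 0.00199). On its other side UQCRC1 was at -0.16 (adjusted p = 0.657). Whether reads of neighbours enter the COL7A1 count was not tested. COL18A1 was at 1.04, 1.09 and 0.800 FPKM (0.61, adjusted p = 0.120). It too passed without the library labelled shCont replicate 1 (adjusted p = 0.0474). COL19A1 stayed low at 1.89, 2.04 and 2.00 FPKM, inside the range of shp16, with an interval of -0.39 to 0.22 for its log2 fold change. COL5A3 and COL4A2 also overlapped shp16 (adjusted p = 0.820 and 0.975).

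**Figure D4:**
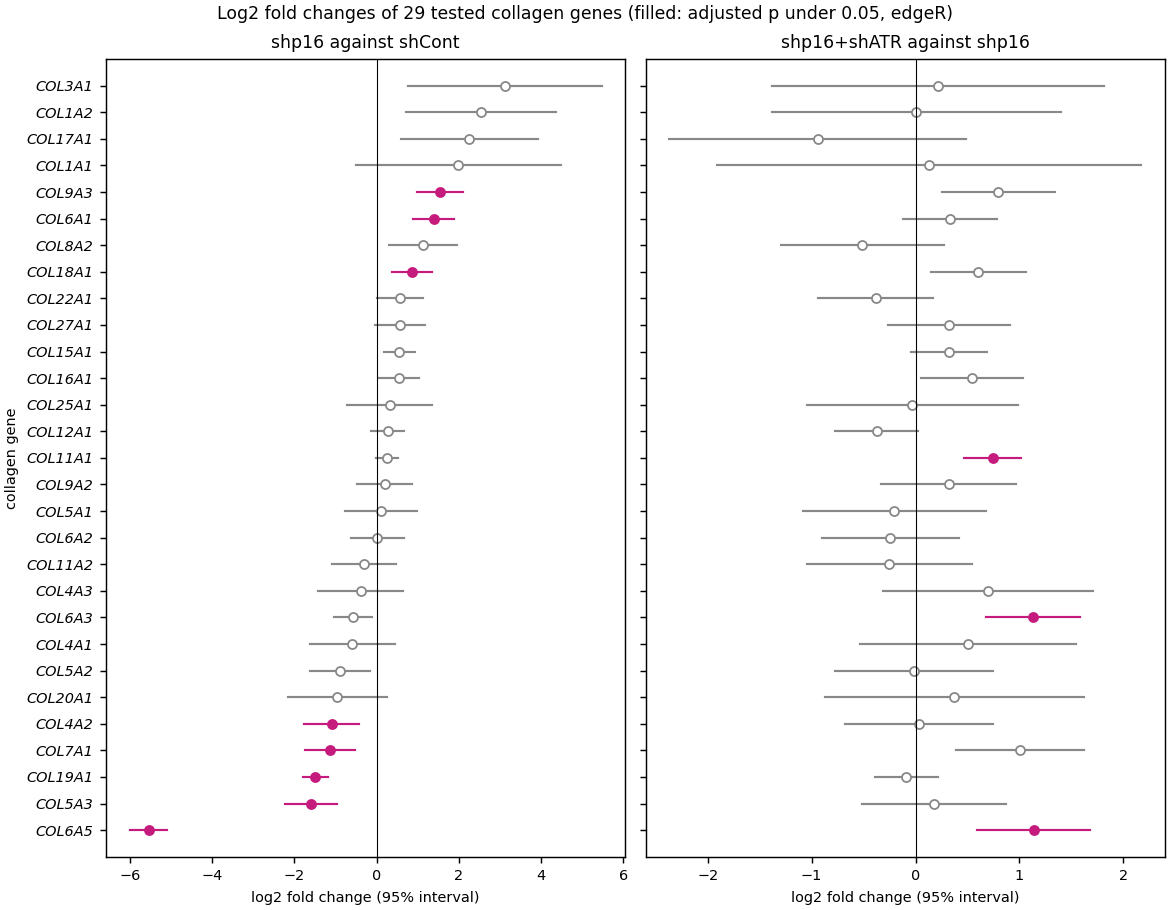
Log2 fold changes with 95% intervals of the 29 tested collagen genes in shp16 against shCont (left) and shp16+shATR against shp16 (right), ordered by the left panel. Filled points passed an adjusted p of 0.05, 8 on the left with COL6A5 lowest at -5.55 and 3 on the right, all above 0.

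The third comparison, shp16+shATR against shCont, differs by both knockdowns and shares its libraries with the other two. Here 13 of 29 tested genes passed, 9 higher and 4 lower (44.8%), against 23.6% of all genes (10.9% higher and 12.7% lower). The median was 0.32, against -0.018 over all genes. COL9A3 was 5.09-fold higher (2.35, SE 0.262, adjusted p = 8.51e-05, edgeR), and COL6A1, COL18A1 and COL11A1 were higher by 1.72, 1.47 and 1.00 on the log2 scale. COL16A1 reached 3.15, 3.35 and 2.28 FPKM, above all shCont libraries, and rose by 1.08 (SE 0.229, adjusted p = 0.00563). COL15A1 reached 1.02, 1.19 and 0.999 FPKM, also above all of shCont, and rose by 0.88 (SE 0.173, adjusted p = 0.00361). COL27A1, a fibrillar chain of cartilage, passed with overlapping groups (0.88, adjusted p = 0.0373) but not in 9 of 17 alternatives, among them without the library labelled shCont replicate 1 (0.81, adjusted p = 0.0553). COL1A2 and COL3A1 passed as well (adjusted p = 0.0460 and 0.0396), from totals of 7 and 3 counts in shCont, and COL1A2 lost its call in 12 of 17 alternatives and COL3A1 in 9. The 4 lower genes were COL6A5 (-4.41, adjusted p = 8.76e-08), COL19A1 (-1.58), COL5A3 (-1.42) and COL4A2 (-1.05). The COL4A2 call was lost without shCont replicate 2 or any 1 of the shp16+shATR libraries (adjusted p up to 0.0991). COL6A3 did not pass (adjusted p = 0.0661) except without shCont replicate 2 (0.73, adjusted p = 0.0387).

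By class over the 3 comparisons in this order, fibrillar chains (9 tested of 11) gave no rise and 1 fall, 1 rise and no fall, and 4 rises and 1 fall. FACIT chains (7 of 10) gave 1 rise and 1 fall, none, and 2 rises and 1 fall. Collagen VI chains (4 of 5) gave 1 rise and 1 fall, 2 rises, and 1 rise and 1 fall. Collagen IV chains (3 of 6) gave 1 fall, none and 1 fall, and the multiplexins (2 of 2) gave 1 rise, none and 2 rises. Collagen VII, with COL7A1 as its only chain, gave 1 fall, none and none. Over all genes tested, 14.8%, 6.22% and 23.6% passed in these comparisons. COL8A2, COL17A1 and COL25A1, the tested members of the short-chain and transmembrane classes, passed in none. COL12A1 and COL9A2, which belong to the 10 most abundant chains, also passed in none. COL12A1, a FACIT chain of dense connective tissue, stayed between 0.575 and 1.10 FPKM in all libraries, and with ATR knockdown it passed as lower without the library labelled shCont replicate 1 (-0.37, adjusted p = 0.0239) and when shp16 and shp16+shATR were fitted alone.

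The start sites of some genes that passed, picked and not all of them, were set beside one another because their levels moved in different directions. Promoters came from RefSeq (GRCh38.p14) as the 250 bases before the start, for the 32 of 44 members in the table, without COL6A5, COL9A3 and COL6A1. Capitals mark a TATA box (TATAAA) or a GC box (GGGCGG) on either strand, written 5′ to 3′ on the gene's strand, at chr6:69866306-69866555 (plus), chr3:48595330-48595579 (minus), chr21:45404915-45405164 (plus), chr1:103108523-103108772 (minus) and chr2:237414165-237414414 (minus), in the order below.
COL19A1: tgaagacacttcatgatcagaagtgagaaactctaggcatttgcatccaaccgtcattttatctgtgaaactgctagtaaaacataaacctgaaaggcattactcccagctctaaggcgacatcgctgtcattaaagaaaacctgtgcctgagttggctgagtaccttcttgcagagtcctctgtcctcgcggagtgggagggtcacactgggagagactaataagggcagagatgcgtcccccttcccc
COL7A1: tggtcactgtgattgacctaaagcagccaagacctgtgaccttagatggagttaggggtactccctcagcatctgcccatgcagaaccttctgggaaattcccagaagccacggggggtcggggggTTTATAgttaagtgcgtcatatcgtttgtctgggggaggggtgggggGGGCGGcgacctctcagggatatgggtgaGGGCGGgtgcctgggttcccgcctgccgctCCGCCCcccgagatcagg
COL18A1: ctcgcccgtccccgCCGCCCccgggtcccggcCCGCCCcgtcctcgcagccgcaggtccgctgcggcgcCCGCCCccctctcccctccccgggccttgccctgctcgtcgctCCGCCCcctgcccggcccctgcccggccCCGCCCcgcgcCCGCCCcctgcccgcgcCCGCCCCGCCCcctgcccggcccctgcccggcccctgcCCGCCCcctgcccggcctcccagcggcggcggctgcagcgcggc
COL11A1: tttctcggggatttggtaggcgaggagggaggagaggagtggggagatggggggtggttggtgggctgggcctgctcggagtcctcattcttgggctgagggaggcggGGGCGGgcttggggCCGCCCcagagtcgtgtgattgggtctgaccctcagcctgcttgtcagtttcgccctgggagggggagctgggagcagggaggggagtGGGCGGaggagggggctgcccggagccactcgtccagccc
COL6A3: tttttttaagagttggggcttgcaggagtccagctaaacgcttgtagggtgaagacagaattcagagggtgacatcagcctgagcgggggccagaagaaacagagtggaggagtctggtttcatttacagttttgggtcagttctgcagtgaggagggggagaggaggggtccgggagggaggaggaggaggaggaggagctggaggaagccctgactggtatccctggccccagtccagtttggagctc

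COL19A1, which fell with p16 knockdown, held neither motif in a window of 48.4% GC with 6 CpG, and COL6A3 held neither in 56.0% GC with 3 CpG. COL18A1 held 9 GC boxes, some overlapping, in 88.4% GC with 37 CpG. COL11A1 held 3 GC boxes in 68.8% GC. COL7A1 held 3 GC boxes and, 124 bases before its start, a TATA box match on the opposite strand (TTTATA). COL4A2 and COL5A3 also fell with p16 knockdown but are not printed above. COL4A2 held 1 GC box in 78.8% GC with 40 CpG, and COL5A3 held 1 in 66.0% GC with 10 CpG. Over the 32 matched members the median was 65.2% GC and 16 CpG, against 58% and 11 over 35116 promoters. A GC box was in 18 members (56.2%, against 42.6% of all promoters) and a TATA box in 5 (15.6%, against 10.7%). The SOX core AACAAT was in 1 member (3.12%, against 8.98%), and the E-boxes CACGTG and CATGTG and the E2F sites TTTGGCGC and TTTCGCGC were in none (against 6.34%, 9.42% and 0.968%). These are matches of letters in a short window.

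Collagen is made with the help of other proteins, and 43 of 57 genes in a list of modifying enzymes, chaperones, propeptide proteases, crosslinkers, receptors and collagen-binding proteoglycans were tested. In shp16 against shCont 11 passed, 7 higher and 4 lower (25.6%, against 14.8% of all genes). In shp16+shATR against shp16 5 passed, 4 higher and 1 lower (11.6%, against 6.22%). In shp16+shATR against shCont 18 passed, 12 higher and 6 lower (41.9%, against 23.6%). The median log2 fold changes of the list were 0.029, 0.057 and 0.12, against -0.016, 0.0021 and -0.018 over all genes.

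Of the enzymes that modify collagen in the endoplasmic reticulum, LEPREL2, a prolyl 3-hydroxylase, was at 0.0920, 0.0165 and 0.0156 FPKM in shCont and 0.725, 0.709 and 0.961 in shp16 (4.11, SE 0.453, adjusted p = 0.000127, edgeR). COLGALT1, which adds galactose to hydroxylysine, was at 117, 131 and 132 FPKM in shp16 and 86.2, 84.0 and 86.1 in shp16+shATR, and fell by 0.57 on the log2 scale (adjusted p = 0.00461). It had not changed past the test with p16 knockdown (adjusted p = 0.868). The collagen chaperone SERPINH1 passed in neither comparison (adjusted p = 0.0570 and 0.326).

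Proteases that trim procollagen moved both ways with p16 knockdown. ADAMTS3 (-1.34, adjusted p = 0.0139, edgeR) and TLL2 (-1.66, adjusted p = 0.0295) fell, TLL2 not past the test without shCont replicate 2 or 3 or shp16 replicate 1 or 3, and ADAMTS2 rose by 3.52 (adjusted p = 0.00669) from a mean of 0.0109 FPKM to 0.146. None of the 3 passed with ATR knockdown. Of the crosslinking oxidases, LOX fell by 0.51 on the log2 scale with p16 knockdown (adjusted p = 0.00951), though not past the test without shp16 replicate 3 (adjusted p = 0.0540). LOXL2 was at 4.31, 4.33 and 4.44 FPKM in shCont, 4.87, 6.85 and 6.47 in shp16 and 10.3 ± 0.264 (SD, n = 3) in shp16+shATR. The 3 groups did not overlap, and LOXL2 passed in both steps by edgeR (0.48, adjusted p = 0.0205, and 0.77, adjusted p = 0.00339). The first of these calls was lost without shCont replicate 2 or shp16 replicate 2 or 3 (adjusted p up to 0.0911).

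Among receptors, MRC2, which takes up collagen for degradation, was at 0.198, 0.125 and 0.126 FPKM in shCont, 0.553, 0.715 and 0.827 in shp16 and 1.39, 1.22 and 1.21 in shp16+shATR. It too passed in both steps without overlap (2.19, adjusted p = 0.000139, and 0.87, adjusted p = 0.0274, edgeR). The receptor kinase DDR1 rose with p16 knockdown (0.60, adjusted p = 0.00832) and ITGA1, the alpha chain of a collagen-binding integrin, fell (-0.91, adjusted p = 0.00150). ITGA10, another such chain, rose with ATR knockdown (1.01, adjusted p = 0.0230). The ATR knockdown calls of MRC2 and ITGA10 were lost when single libraries were left out, MRC2 with any of the 6 and ITGA10 with any but shp16 replicate 3 (adjusted p up to 0.123). The proteoglycans FMOD and PRELP, which bind collagen fibrils, rose with p16 knockdown by 2.99 (adjusted p = 0.000533) and 1.85 (adjusted p = 0.00266), from under 0.2 FPKM on average.

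**Figure D5:**
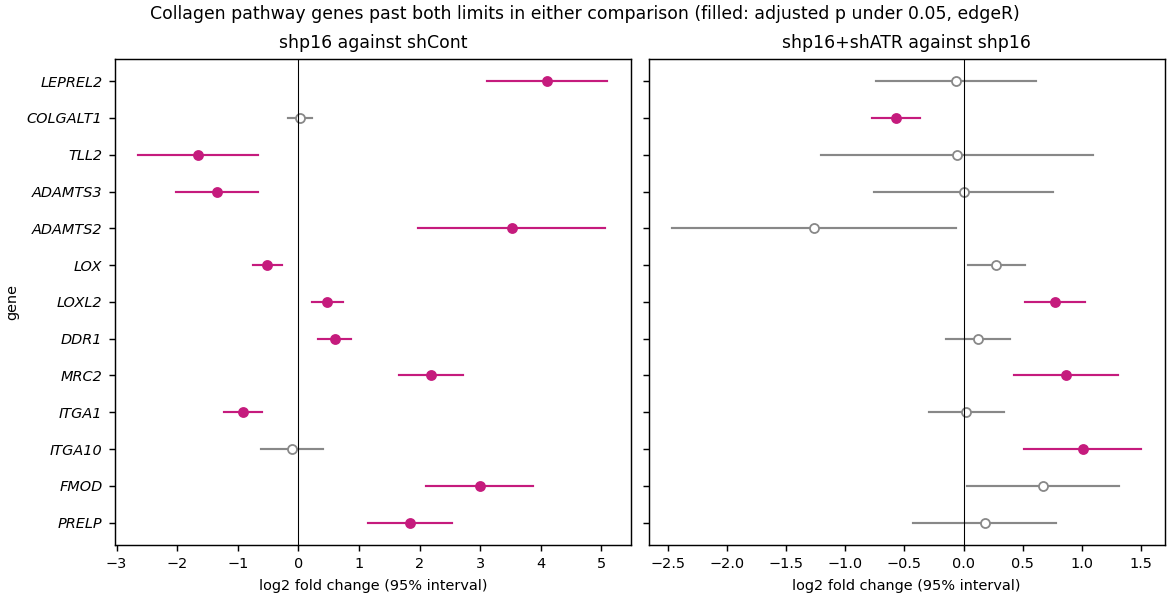
Log2 fold changes with 95% intervals of the 13 collagen pathway genes with an adjusted p under 0.05 and a change of at least 0.5 in either comparison, for shp16 against shCont (left) and shp16+shATR against shp16 (right). Filled points passed the adjusted p. LOXL2 and MRC2 are filled and above 0 in both panels.

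The chains below the filter were too sparse for a reading. COL2A1, the cartilage fibril chain, COL10A1 of hypertrophic cartilage and COL24A1 were among them, with COL4A4 to COL4A6, COL6A6, COL8A1, COL9A1, COL13A1, COL14A1, COL21A1, COL23A1, COL26A1 and COL28A1. When no filter was applied, COL4A4, with 13, 8 and 15 counts in shCont against 1, 2 and 1 in shp16, passed as lower (-3.01, adjusted p = 0.0168, edgeR). COL14A1, with 1, 1 and 0 counts against 14, 3 and 11, passed as higher (3.64, adjusted p = 0.00854).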

How the data were processed

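RNA sequencing of SKMEL28 cells gave 9 libraries in 3 groups of 3 (shCont, shp16, shp16+shATR). Novogene, a service company, made and sequenced the libraries and ran the upstream processing. The submitters' processing notes name STAR 2.6.1, DESeq2 and GRCh38, but the deposited gene coordinates are those of GRCh37, and they are printed as GRCh37. Whether counting used strand is not given in the sources used here.

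Raw counts per gene, not normalized, were deposited by the authors for 48162 genes. They also deposited FPKM, which equalled each count scaled by gene length and library total (largest relative difference 4.22e-07). The 3 shp16+shATR count columns share 1 name, and each was matched to 1 FPKM column by these values to number it. Library totals were 17314662 to 23588174 counts, and a gene with few counts is measured with a correspondingly wide interval.

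Levels are FPKM, which corrects for gene length. Counts were tested with edgeR 4.0.16 in R 4.3.3 by quasi-likelihood, after filterByExpr and TMM scaling, in a model fitted to all 9 libraries with 1 coefficient per group. P-values were Benjamini-Hochberg adjusted over 15776 genes at 0.05, and each SE is the log2 fold change divided by the square root of the F statistic. The code was tested on simulated data. The members and lists were chosen with earlier results of these data known. Values are given for members that passed in any comparison, the 10 with the highest mean FPKM, COL6A5, CDKN2A, ATR and pathway genes past the threshold with a change of at least 0.5. Other genes that appear in the text were picked with their values in view.

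Alternative settings were DESeq2 1.42.0, upper-quartile normalization, no filter, a fit of only the groups compared, limma 3.58.1 on log2 FPKM with 1 or 0.1 added, the replicate number as a block and each library left out in turn. A block in edgeR over all 9 libraries was chosen after seeing the data. Promoters were read from a RefSeq table of GRCh38.p14.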

Additional observations from a re-analysis of the deposited data

How the results depend on the processing

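Over all alternatives for single genes, 1468 values kept their direction and side of the threshold, 135 lost a call, 31 gained one and 30 turned direction. The collagen genes called in shp16 against shCont were 8, and they were 16 with no filter and 6 to 14 with a library left out, with 14 reached without the library labelled shCont replicate 1. In shp16+shATR against shp16 they were 3, and 5 with DESeq2, 5 with no filter, 5 in a fit of only the groups compared and 1 to 7 with a library left out (7 without the library labelled shCont replicate 1, 1 without shp16 replicate 3). In shp16+shATR against shCont they were 13, and 9 to 14 with a library left out. Pathway genes called were 8 to 15, 2 to 11 and 12 to 23 with a library left out in the 3 comparisons, and in the second 9 in a fit of only the groups compared and 3 by limma with 0.1 added. Over all genes, leaving out a library gave 1353 to 4189, 298 to 3230 and 2341 to 5386, a fit of only the groups compared gave 1189 and 2859 in the first and second comparisons, and DESeq2 gave 1508 in the second. Log2 changes near 0 turned direction: COL1A2 (-0.0073) and ADAMTS3 (-0.014) in shp16+shATR against shp16 with no filter, ADAMTS3 (-0.0030) in a fit of only the groups compared, and COLGALT1 (-0.029) in shp16 against shCont with upper-quartile normalization. With a library left out, several values that had not passed the test spanned 0. In shp16+shATR against shp16 these were COL5A3 (-0.16 to 0.37), COL4A2 (-0.22 to 0.46), COL19A1 (-0.20 to 0.022), COL3A1 (-0.32 to 0.61), COL1A2 (-0.28 to 0.51), LEPREL2 (-0.16 to 0.067), TLL2 (-0.25 to 0.40), ADAMTS3 (-0.19 to 0.19) and ITGA1 (-0.049 to 0.12). In shp16 against shCont they were COL9A2 (-0.034 to 0.41), ITGA10 (-0.38 to 0.034) and ATR (-0.12 to 0.33), and in shp16+shATR against shCont COL7A1 (-0.25 to 0.066) and COL12A1 (-0.31 to 0.022). The cause of these moves was not tested, except that 1 added to a low FPKM shrinks its change by construction. Depth limits the chains with under 60 counts in all.

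The replicate numbers gave no clear pairing of the libraries. Deviations from the group means correlated at -0.15 to 0.17 between same-numbered libraries, too weakly to decide whether these were handled together. In shp16+shATR against shCont each library correlated best with its own number (0.036 to 0.081). In shp16+shATR against shp16 only replicate 2 did (0.17), and in shp16 against shCont none did. With the number as a block in edgeR on all 9 libraries, the first comparison called 7 collagen genes, 10 pathway genes and 1807 genes in all, and the second called 3, 3 and 612. By limma with 1 added, the block took the first comparison from 7 to 5 collagen genes, from 8 to 7 pathway genes and from 2060 to 1513 genes in all, and the second from 2 to 1, from 5 to 3 and from 901 to 481. In edgeR on the shCont and shp16 libraries alone, it took the first comparison from 6 to 2 collagen genes, from 9 to 3 pathway genes and from 1189 to 420 genes in all.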
